A study of Rattus norvegicus with 40 samples.

Results

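Macrophage genes of the carotid artery wall were followed as 9 genes, Lgals3, Aif1, Ctss, Cd14, Fcgr2b, Clec10a, Arg1, Ly86 and Olr1, out of 4736 named genes on the array. They were taken as all probe sets that the platform annotation gives exactly 1 of these symbols, which made 14 probe sets. All 9 genes had a probe set bright enough to be tested, and 13 of the 14 probe sets were. The study asked, per its title, which genes change in the arterial remodelling that follows tissue plasminogen activator (tPA), a protease that turns plasminogen into plasmin.

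All arteries came from male Wistar-Kyoto rats, 3 months old, and RNA of 3 vessels was pooled for each of 40 arrays in 11 groups. The left common carotid artery of operated rats was injured with a balloon catheter, which scrapes off the inner lining and stretches the wall, and its outer side then received pluronic gel, alone or with recombinant tPA at 20 nmol/kg. Left arteries (injured) and right arteries (contralateral, not injured) of gel and of tPA rats were taken on day 1 or day 4, with 3 arrays in each of these 8 groups. The controls were left arteries of sham-operated rats (4 arrays for day 1, 6 for day 4) and of intact rats (6 arrays). No label states that the sham rats received gel, so injury and gel cannot be told apart in comparisons with sham. The gel is described for the injured left artery alone, so comparisons of left with right arteries do not separate injury and gel either.

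Macrophages are the phagocytes that clear debris, cells and lipid from a damaged artery and that release proteases and growth signals into its wall. They arise from blood monocytes that enter through the damaged surface or the adventitia, and from cells already resident in the adventitia. Galectin-3 (Lgals3), a lectin that binds galactosides, and Aif1, a calcium-binding protein of the macrophage skeleton, mark them in many tissues. Ctss is a lysosomal cysteine protease that also cuts elastin. Cd14 is the co-receptor for endotoxin, and Ly86 (also called MD-1) is the partner of the receptor Cd180. Fcgr2b is the inhibitory receptor for the Fc part of IgG, and Clec10a is a C-type lectin for galactose and N-acetylgalactosamine. Arg1 turns arginine into ornithine and urea, and Olr1 (also called LOX-1) is a scavenger receptor for oxidised LDL. None of the 9 is restricted to macrophages: Olr1 is made by endothelium and smooth muscle too, Lgals3 by fibroblasts and smooth muscle, Cd14 and Arg1 by neutrophils, and Fcgr2b and Ly86 by B cells.

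The label was checked against other markers of the cell type. Of 37 macrophage and monocyte genes listed, 16 had a probe set with 1 symbol and 12 were bright enough to be tested. Csf1r, the receptor for macrophage colony-stimulating factor, lay between 52.2 and 210.9 intensity units and never at the lower limit of 23.3. The probe set of Itgam, an integrin of macrophages and neutrophils, was at that limit on 35 of 40 arrays, so it gave no information. Of 7 dendritic cell genes listed, 0 had a probe set with 1 symbol, so that cell type could not be read. Smooth muscle transcripts were strong on every array, with Acta2 between 4835 and 13014 units, as in an artery wall. In pooled tissue of this kind, fewer cells of a type and less RNA per cell cannot be told apart.

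The start regions of 3 of the genes, Ctss, Cd14 and Olr1, are in the RefSeq promoter table (GRCr8), and the other 6 were not analysed here. Windows of 300 bases, 250 before and 50 after the start, were searched on both strands for the core of the PU.1 (Spi1) site, GAGGAA, for the AP-1 site, TGANTCA, and for the C/EBP site, TTGCNNAA. The first belongs to the factor that specifies the myeloid lineage, and the others to factors of inflammatory gene induction. The PU.1 core was present in all 3 windows and in 27.6% of the 33469 promoter windows of the table. The AP-1 letters were in the Olr1 window and in 7.33% of all, and the C/EBP letters in none of the 3 and in 10.6% of all. The matches are printed for Ctss and Olr1, a lysosomal protease and a scavenger receptor that both rose on day 4 after injury, in 30 bases each with the matches in capitals (GAGGAA on the other strand reads TTCCTC).
Ctss, GRCr8 chr2:185775369-185775398, plus strand: atgaaagttcacTTCCTCgttgtggatact
Olr1, GRCr8 chr4:164634567-164634596, minus strand: cccTTCCTCctgtgacggtTGAGTCAtcct
A match is a description of the letters and no evidence of binding.

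The deposited intensities had nearly the same trimmed mean on every array, from 500.3 to 500.8 units. There were 4 tPA arrays unlike the rest of their groups. An injury index, formed without the 9 genes from probe sets that differed between left gel and sham arrays, gave 1.08 for replicate 1 of right tPA day 4 and 1.15 for replicate 2 of right tPA day 1, against -0.79 to -0.20 for the other right tPA arrays. It gave -0.61 for replicate 1 of left tPA day 4 and -0.11 for replicate 2 of left tPA day 1, against 0.88 to 1.44 for the other left ones. Left gel arrays had 0.76 to 1.06 on day 1 and 1.77 to 1.84 on day 4. The odd right and left arrays thus share a day and a replicate number, and on each the index runs against the labelled side. Whether their side labels are right was not tested, and every value of left or right tPA arteries rests on those labels. The ratio of 3' to 5' signal of the GAPDH control, a sign of RNA quality, was 0.33 on right tPA day 4 replicate 1. It was 0.24 on left tPA day 1 replicate 3, which is not among the 4, and at least 1.41 on every other array. Their actin ratios were 4.95 and 2.8, and the part of RNA quality in their profiles was not tested. Lists of other genes are given with all arrays alone. For the 9 genes, comparisons of tPA arteries are given with and without the 4 arrays unlike the rest of their groups. The arrays were picked by their profile: leaving out left arrays of low index and right arrays of high index itself moves left tPA values up and right tPA values down, so counts without them are descriptions and support no direction. Differences are given in log2 units, the first named group minus the other, and an adjusted p is that of limma with Benjamini-Hochberg adjustment over all 5827 probe sets tested, with a threshold of 0.05. Where numbers of unadjusted p under 0.05 are given, the share of all probe sets under that threshold was not counted, so they support nothing. Lack of overlap is described gene by gene, and its share of all probe sets was counted only for left gel day 4 against day 1. Nothing in the labels says that the pools of a group were processed separately, so p-values measure the spread between these arrays.

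**Figure D1:**
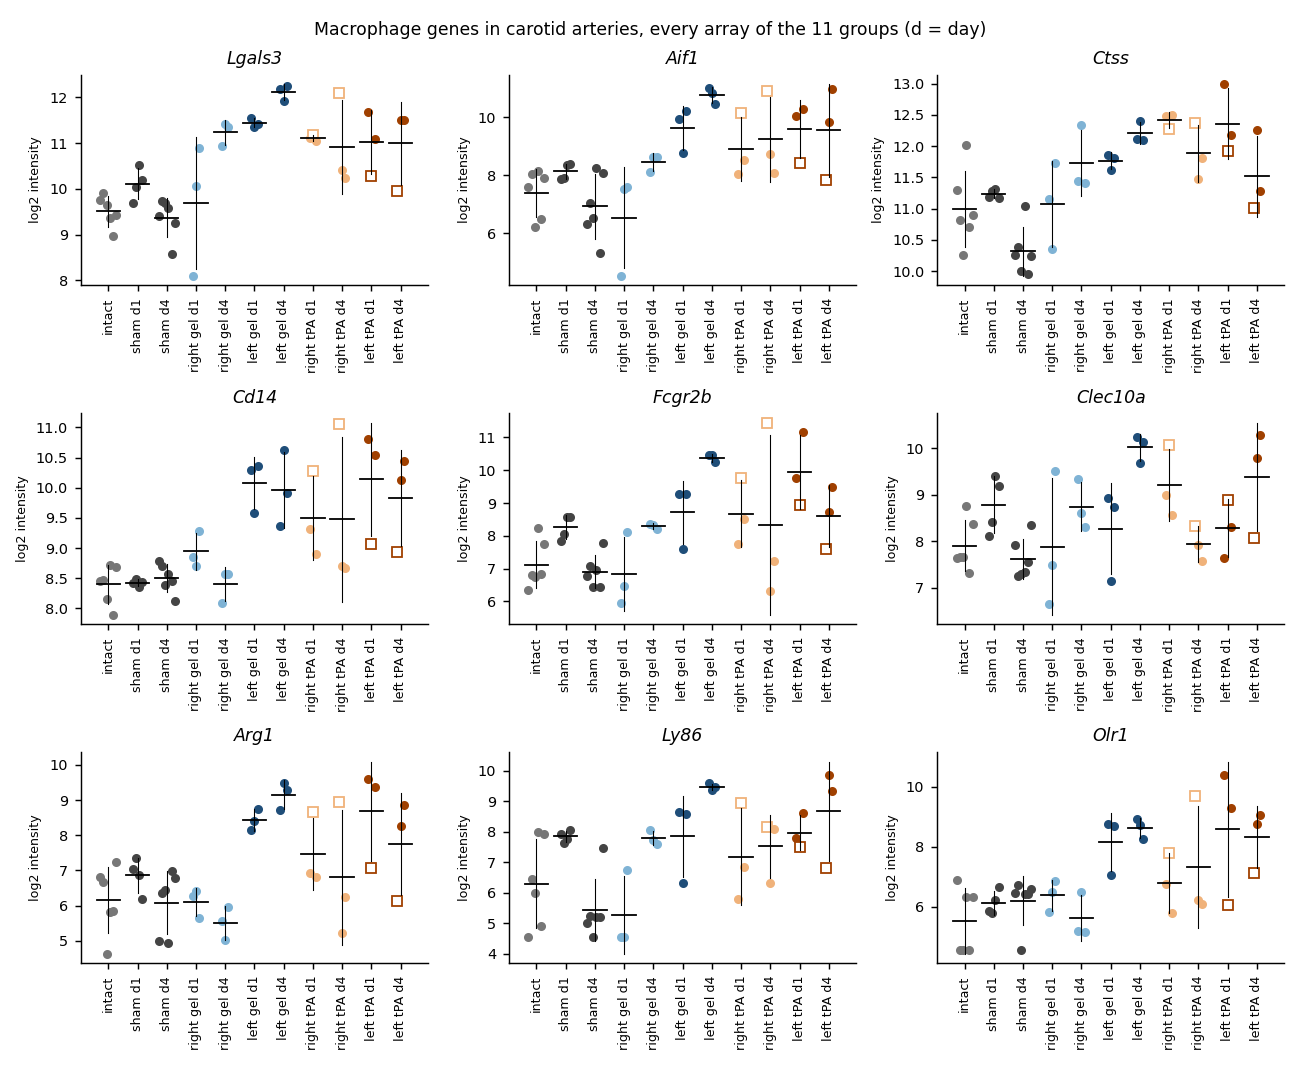
Log2 intensity of the brightest probe set of each of the 9 genes on all 40 arrays, by group, with horizontal bars for the mean and vertical bars for the SD (n = 3 to 6); open squares are the 4 tPA arrays that stand apart. Left gel day 4 has the highest mean in 7 of 9 panels, Cd14 and Ctss being the others, and the open squares of left and right tPA arteries lie on opposite sides of their groups in most panels.

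All 9 genes were higher in injured, gel-treated left arteries than in sham arteries on day 4, each passing the test. The rise was largest for Ly86 (16.4-fold) and Aif1 (14.2-fold), followed by Fcgr2b (11.1-fold), Arg1 (8.42-fold), Lgals3 (6.69-fold), Olr1 (5.43-fold) and Clec10a (5.25-fold), and smallest for Ctss (3.71-fold) and Cd14 (2.76-fold). Counted by probe set, 11 of the 13 tested were called higher and 0 lower, where 19.2% of all probe sets tested were called in either direction. One of the 11, AB005900_at of Olr1, passed the brightness filter only through the groups where it is high, and without it the count was 10 of 12.

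Among the markers of macrophage identity, Lgals3 had intensities of 4654, 3870 and 4867 in left gel arteries on day 4. In sham arteries of that day it lay between 381.8 and 851.7, with a median of 724. The 2 groups were far apart, and the difference was 2.74 (SE 0.423, adjusted p = 4.3e-05). Aif1 had 2026, 1823 and 1414 units after injury and 39.8 to 308.0 in sham arteries, with a median of 113. Its lowest injured array was above the highest sham array, with a difference of 3.83 (SE 0.697, adjusted p = 0.000207).

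Ctss, the protease, had 4444, 5439 and 4380 units in left gel arteries on day 4. In sham arteries it had 996.1 to 2114 units, with a median of 1219. The groups did not overlap, and the difference was 1.89 (SE 0.325, adjusted p = 0.000132). It rose with little spread among the 3 injured pools.

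Cd14, which presents endotoxin to its signalling receptor, reached 662.4, 1576 and 961.3 units on day 4 against 278.2 to 440.1 in sham arteries (median 365). All 3 injured arrays were above all 6 sham arrays, although they differed among themselves by more than the sham arrays did. The difference was 1.47 (SE 0.406, adjusted p = 0.00934), and without left gel day 4 replicate 2, the highest array, Cd14 did not pass. Ly86 had 767.9, 664.3 and 704.3 units against 15.7 to 175.5 in sham arteries (median 36.7). Among sham arteries only replicate 6 exceeded 37.3 units for Ly86, and the difference was 4.03 (SE 0.749, adjusted p = 0.000256).

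For the receptors of immune complexes and glycans, the injured arrays were again all above the sham arrays. Fcgr2b had 1403, 1400 and 1210 units against 86.0 to 221.8 (median 116), a difference of 3.47 (SE 0.683, adjusted p = 0.000438). Clec10a had 1203, 817.8 and 1124 units against 152.6 to 324.6 (median 175), a difference of 2.39 (SE 0.496, adjusted p = 0.000718). Both genes were tight among the 3 injured pools.

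The enzyme Arg1 had 417.6, 722.6 and 620.5 units in left gel arteries on day 4 against 30.8 to 127.8 in sham arteries (median 84.3). The difference was 3.07 (SE 0.661, adjusted p = 0.00102). The scavenger receptor Olr1 had 488.2, 418.7 and 307.1 units against 13.6 to 106.7 (median 86.9), with a difference of 2.44 (SE 0.750, adjusted p = 0.0191). The groups did not overlap for either gene, and Olr1 did not pass without left gel day 4 replicate 1 or without replicate 2.

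**Figure D2:**
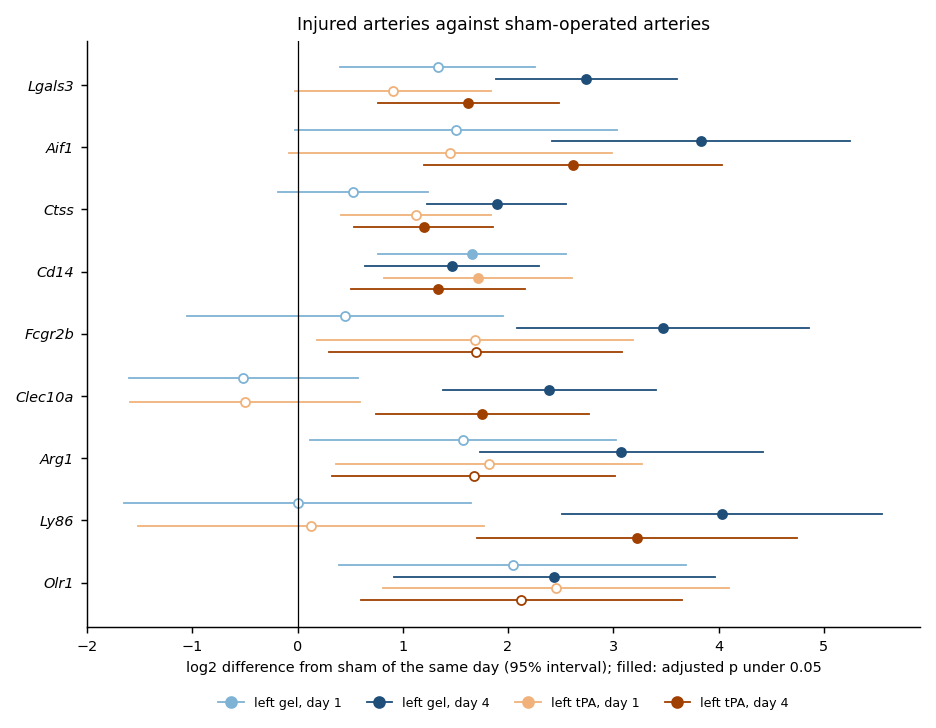
Log2 difference of the 9 genes between injured left arteries and sham arteries of the same day, with 95% intervals, for gel and tPA on days 1 and 4 (3 arrays against 4 on day 1 and 6 on day 4); filled points passed the test. All 9 left gel day 4 points are filled, from 1.47 for Cd14 to 4.03 for Ly86, while on day 1 only Cd14 is filled.

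On day 1 the injured gel arteries differed from sham arteries in fewer of the genes. Cd14 was the 1 probe set of 13 called, where 3.12% of all probe sets were called in either direction, and 4 had an unadjusted p under 0.05. It had 1256, 763.2 and 1321 units in left gel arteries and 328.6 to 359.4 in the 4 sham arteries. All injured arrays were above all sham arrays, with a difference of 1.65 (SE 0.439, adjusted p = 0.0295), a 3.15-fold rise. That call was lost without any 1 of the 4 sham arrays, and without left gel day 1 replicate 1 or replicate 3. The uninjured right arteries of day 1 also lay above all sham arrays for Cd14, with no call. They had 414.6 to 625.8 units in gel rats and 477.3 to 1235 in tPA rats.

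Olr1, Arg1, Aif1 and Lgals3 had positive differences on day 1 that did not pass. Their values were 2.04 (95% interval 0.395 to 3.69), 1.57 (0.115 to 3.02), 1.51 (-0.0253 to 3.04) and 1.33 (0.402 to 2.26), and in all 4 genes the injured arrays lay above the sham arrays. Without the 4 tPA arrays that stand apart, which narrows the shared estimate of the spread, Olr1, Arg1 and Lgals3 passed as well, as did 7.38% of all probe sets. Ctss had 0.53 (-0.188 to 1.24), and its injured arrays lay above the sham arrays too, with a lowest of 3133.5 against a highest of 2549.1 units. The share of all probe sets without overlap was not counted in this comparison. Fcgr2b had 0.45 (-1.05 to 1.95), Ly86 -0.00 (-1.65 to 1.64) and Clec10a -0.52 (-1.61 to 0.574), and in these 3 genes the groups overlapped.

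The array of left gel day 1 replicate 2 was lower than the others in several genes. Ly86 had 405.6, 79.0 and 382.8 units on replicates 1, 2 and 3, Fcgr2b 623.0, 193.9 and 613.3, and Clec10a 484.4, 141.2 and 427.0. Olr1 followed the same order with 434.5, 132.5 and 414.1 units, whereas Arg1, with 282.9, 336.8 and 432.3, did not. Neutrophil markers moved with that array: the summed intensity of 5 tested neutrophil genes was 857 on replicate 2 and 4064 and 4307 on the others, against 402 to 755 in sham arteries of day 1. Of those 5 genes, S100a8 (3.93) and Defa5 (3.06) were called higher on day 1 and none on day 4. Of all genes, 3.33% were called on day 1 and 20.8% on day 4. Skeletal muscle genes were also higher on day 1, with 5 of 10 called and a summed intensity of 22750 to 44294 against 3171 to 4488 in sham arteries. The part of either in the day 1 values of the 9 genes was not tested.

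The day of sampling was then compared directly. Within left gel arteries, 0 of 13 probe sets were called between day 4 and day 1 (3.21% of all probe sets were, and 6 of the 13 had an unadjusted p under 0.05). Array weights gave 7 calls. Without the 4 tPA arrays, Clec10a, Fcgr2b and the second probe sets of Aif1 and Olr1 were called (5.99% of all). That of Olr1 passed the brightness filter only through the groups where it is high. For 10 of the 13, all 3 arrays of day 4 were above all 3 of day 1, as in 23.0% of all probe sets, whose median difference was 0.18. The difference was 1.75 (95% interval 0.582 to 2.91) for Clec10a, 1.67 (0.0633 to 3.27) for Fcgr2b and 1.62 (-0.135 to 3.38) for Ly86. Cd14 had -0.11 (-1.07 to 0.842), and its arrays of both days overlapped.

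The rise over sham was larger on day 4 than on day 1 for 2 genes, where 2.42% of all probe sets were called. Clec10a had a difference between the day 4 and day 1 effects of 2.91 (SE 0.731, adjusted p = 0.0222), and Ly86 one of 4.04 (SE 1.10, adjusted p = 0.0395). Fcgr2b had 3.02 (SE 1.01) and did not pass, except without the 4 tPA arrays (5.06% of all called). Olr1 and Cd14 had 0.40 and -0.19, with 95% intervals of -1.85 to 2.64 and -1.40 to 1.03. The call for Clec10a was lost without left gel day 4 replicate 1 or 3, sham day 1 replicate 3 or 4, or left gel day 1 replicate 2, and that for Ly86 without any 1 of 13 of the 16 arrays involved.

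Sham arteries had a part in this difference. Ly86 was at 244.4, 199.2, 219.1 and 265.5 units in sham arteries on day 1, all above the 15.7 to 175.5 units of day 4. In a comparison added after these values were seen, Ly86 fell by 2.41 from sham day 1 to sham day 4 (SE 0.683, adjusted p = 0.0366), the 1 probe set of 13 called, where 5.01% of all were. That call held without replicate 4 or 6 of day 4, and was lost without any 1 of the other sham arrays. The summed intensity of 5 pan-leukocyte genes (Ptprc, Cd53, Coro1a, Vav1 and Spn) was 1057 to 1321 in sham arteries on day 1 and 137 to 411 on day 4, and its part in the result was not tested. Clec10a had -1.16 (95% interval -2.08 to -0.239), Ctss -0.92 (-1.53 to -0.318) and Fcgr2b -1.35 (-2.62 to -0.0850) in the same comparison and did not pass. Sham and intact arteries were also compared, with 0 of 13 called on day 1 (0.944% of all) and 0 on day 4 (0.378%), and 1 with an unadjusted p under 0.05 each day. On day 1 all 9 genes had positive differences from intact arteries, up to 1.55 for Ly86 (95% interval 0.157 to 2.94).

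The contralateral right artery of gel rats had no injury of its own. On day 4 it was above sham arteries in 3 of the 9 genes, Lgals3, Ctss and Ly86, where 8.82% of all probe sets were called. Lgals3 had 1952, 2749 and 2607 units, more than all 6 sham arrays, and a difference of 1.86 (SE 0.423, adjusted p = 0.00430). Ctss had 2793, 5161 and 2716 units, above the sham arrays too, with a difference of 1.41 (SE 0.325, adjusted p = 0.00485) that did not pass without right gel day 4 replicate 2. Ly86 had 265.7, 211.5 and 192.8 units and a difference of 2.35 (SE 0.749, adjusted p = 0.0437). Its call was lost without any 1 right gel array or any 1 of sham replicates 1 to 5, with no filter and with a higher floor.

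Fcgr2b, Clec10a and Aif1 had 1.39 (95% interval 0.00188 to 2.78), 1.12 (0.113 to 2.13) and 1.53 (0.118 to 2.95) in that comparison and did not pass, except Fcgr2b without the 4 tPA arrays (12.5% of all called). Arg1, Olr1 and Cd14 had -0.57 (-1.92 to 0.772), -0.58 (-2.11 to 0.945) and -0.09 (-0.917 to 0.735), with right and sham arrays overlapping. Genes of fat and muscle were read in the same arteries, where 9.36% of all genes were called. Cfd (2.25) and Fabp4 (3.56) of 5 adipocyte genes and Tnnc2 (3.46) of 10 skeletal muscle genes were called higher. Their summed intensity was 5520 to 9849 for fat (3788 to 5711 in sham) and 3020 to 26878 for muscle (4425 to 7009 in sham). Both ranges overlapped those of sham. Of 5 pan-leukocyte and 12 macrophage and monocyte genes 0 were called, with medians of 1.54 and 0.28. Their summed intensity did not overlap that of sham. It was 852 to 1537 against 137 to 411 for pan-leukocyte genes, and 5032 to 6929 against 2306 to 3634 for macrophage and monocyte genes. The part of all these genes in the result was not tested.

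The injured left artery was set against the right artery of gel rats on the same day. On day 4, 5 probe sets of 4 genes were higher in the left artery, where 5.10% of all probe sets were called (4 probe sets without AB005900_at). Arg1 had 47.3, 32.3 and 62.4 units in the right arteries, and the left arteries, with 417.6 to 722.6, were higher by 3.65 (SE 0.763, adjusted p = 0.00503), or 12.5-fold. Olr1 had 36.3, 90.7 and 35.7 units on the right and was higher by 3.02 on the left (SE 0.866, adjusted p = 0.0365). Cd14 had 271.7, 379.6 and 381.9 units on the right and was higher by 1.56 (SE 0.469, adjusted p = 0.0463). None of these right-sided values overlapped those on the left.

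Aif1 was called in that comparison by its second probe set (1.66, adjusted p = 0.0480) and not by its brightest (2.30, 95% interval 0.660 to 3.93). Lgals3 had 0.88 (-0.110 to 1.88) and Ctss 0.48 (-0.286 to 1.24), and for Ctss the arrays of both sides overlapped. Ly86 had 1.68, Fcgr2b 2.08 and Clec10a 1.27, with all left arrays above all right arrays and no call. The calls for Cd14 and for Aif1 were lost without any 1 of the 6 arrays, and that for Olr1 by its brightest probe set without any 1 but right gel replicate 2. Arg1 kept its call without each of them in turn. On day 1 the same comparison called 0 of 13 (0.549% of all). An unadjusted p under 0.05 was found for 9, with no share of all probe sets to set beside it. Without the 4 tPA arrays 5 were called (4.75% of all). With all arrays, the nearest to a call was Aif1 with 3.09 (95% interval 1.45 to 4.73), followed by Lgals3 with 1.76 (0.764 to 2.75). The right gel arteries of day 1 differed widely among themselves, with Lgals3 at 274.4, 1074 and 1918 units and Ly86 at 22.0, 14.2 and 107.2, and replicate 3 had 6.57% of its values at the lower limit against 15.6% or more on each other array. Right gel and sham arteries of day 1 had 0 calls (0.927% of all) and 3 unadjusted p under 0.05. Ly86 was below all sham arrays on all 3 right arrays, and on 2 of these it was under the lower limit of 23.3, so the fitted difference of -2.57 depends on that limit and is no measured size. Aif1, by its brightest probe set, was below all sham arrays too, with 20.7 to 192.6 units against 236.4 to 333.8. Cd14, by its brightest probe set, was above them, with 414.6 to 625.8 units against 328.6 to 359.4.

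**Figure D3:**
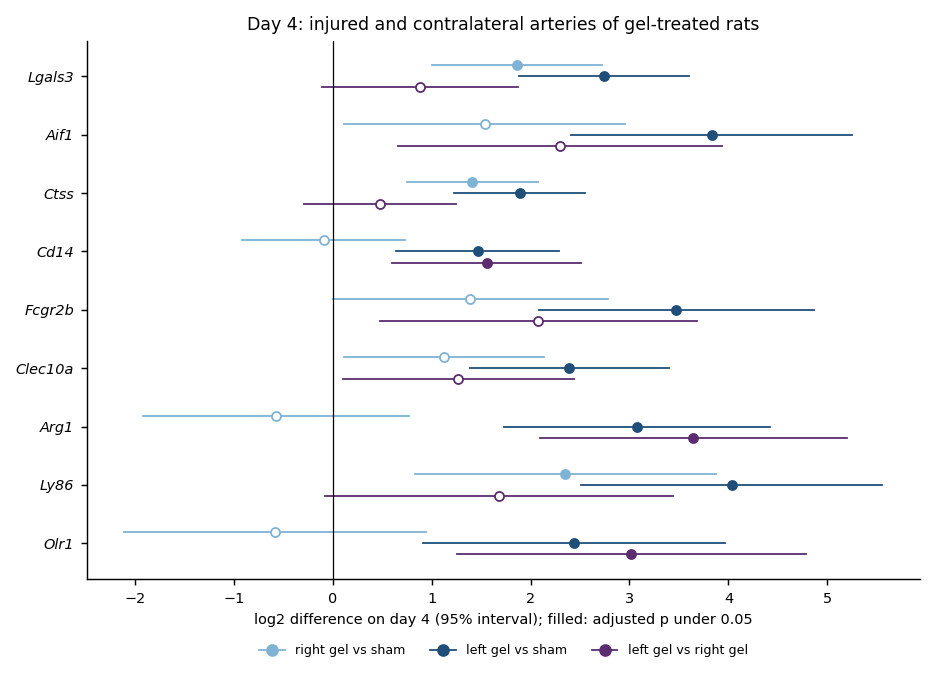
Log2 differences of the 9 genes on day 4 with 95% intervals, for right gel against sham, left gel against sham and left gel against right gel arteries (3, 3 and 6 arrays; the comparisons share arrays); filled points passed the test. For Arg1, Olr1 and Cd14 the right gel point is at -0.58 to -0.09 and the left against right point is filled, whereas for Lgals3 and Ctss the right gel point is filled, at 1.86 and 1.41, and the left against right point is open.

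Injured arteries that received tPA were compared with sham arteries in the same way. On day 4, 6 genes were called higher, Lgals3, Aif1, Ctss, Cd14, Clec10a and Ly86, where 5.87% of all probe sets were called. Ly86 had 112.1, 923.0 and 646.0 units and a difference of 3.23 (SE 0.749, adjusted p = 0.0135). Aif1 had 228.9, 901.7 and 2023 units (2.62, SE 0.697, adjusted p = 0.0243), and Lgals3 had 987.4, 2930 and 2933 (1.62, SE 0.423, adjusted p = 0.0230). Replicate 1, an array that stands apart, was the lowest of the 3 in all 9 genes, and for Ly86 and Aif1 it lay within the sham range, whereas Lgals3 did not overlap.

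Clec10a had 267.8, 886.3 and 1238 units in these arteries, with a difference of 1.76 (SE 0.496, adjusted p = 0.0319). Ctss had 2061, 4886 and 2494 units (1.20, SE 0.325, adjusted p = 0.0263) and Cd14 487.9, 1118 and 1388 (1.33, SE 0.406, adjusted p = 0.0452). Fcgr2b (1.69), Arg1 (1.67) and Olr1 (2.12) did not pass, with 95% intervals of 0.302 to 3.08, 0.328 to 3.02 and 0.598 to 3.65. Arg1 ran from 69.8 units on replicate 1 to 310.4 and 469.1 on the others, and Olr1 from 139.6 to 434.5 and 534.9. Without the 4 arrays that stand apart, 11 of 13 probe sets, covering all 9 genes, were called, as were 18.1% of all, the array left out being the one lowest in all 9 genes. The 11 include AB005900_at of Olr1, which passed the brightness filter only through the groups where it is high. With all arrays, none of the 6 calls held without left tPA day 4 replicate 2, without replicate 3, or when only these 2 groups were fitted. Cd14 also lost its call without any 1 sham array, Clec10a without sham day 4 replicate 2 or 3, and Aif1 without sham day 4 replicate 5.

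On day 1 the tPA arteries had calls for both probe sets of Cd14, where 4.43% of all probe sets were called, and 8 of the 13 had an unadjusted p under 0.05. The brighter one had 1798, 539.5 and 1484 units, all above the sham arrays, and a difference of 1.72 (SE 0.439, adjusted p = 0.0219). The other had 388.0, 410.0 and 379.7 units against 162.8 to 291.0 in sham arteries, a difference of 0.97 (SE 0.262, adjusted p = 0.0299). Both calls were lost without left tPA day 1 replicate 1 or replicate 3, without sham day 1 replicate 2 or 3, and when only the 2 groups were fitted, and the second also without sham day 1 replicate 1. Olr1 had 1344, 66.7 and 628.5 units (2.46, 95% interval 0.809 to 4.10) and Arg1 778.3, 133.4 and 664.8 (1.82, 0.363 to 3.27), with replicate 2, which stands apart, inside the sham range of both. With all arrays, Ctss (3864.5 to 8145 units against 2300 to 2549), Fcgr2b (490.4 to 2275 against 231.5 to 381.5) and Aif1 (345.4 to 1251 against 236.4 to 333.8) lay above all sham arrays, with no call. Without the 4 arrays 8 probe sets were called, for Olr1, Cd14, Arg1, Ctss, Aif1 and Fcgr2b, and 11.7% of all. Aif1 was called there by its second probe set (1.60) and not by its brightest (2.03). The 8 include AB005900_at of Olr1, which passed the brightness filter only through the groups where it is high. Clec10a (-0.50) and Ly86 (0.12) had intervals on both sides of 0, the sign of Ly86 turning with quantile normalization and with median scaling.

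The effect of tPA itself was read from left tPA against left gel arteries. On day 4, 0 of 13 probe sets were called, where 0.120% of all were, and 3 had an unadjusted p under 0.05. All 9 genes had negative differences, from -0.14 for Cd14 (95% interval -1.09 to 0.818) to -1.78 for Fcgr2b (-3.38 to -0.175). The median difference of all probe sets was 0.004, and their share with a negative difference was not counted. Replicate 1 of left tPA day 4, which stands apart, was the lowest of its group in all 9 genes. Fcgr2b had 194.6, 420.9 and 716.6 units with tPA, below the 1210 to 1403 with gel. Lgals3 had -1.12 (-2.12 to -0.130) and was also lower in all 3 tPA arrays. Without the arrays that stand apart the signs were mixed, and 0 passed. Negative were Fcgr2b (-1.28), Lgals3 (-0.60), Arg1 (-0.58), Ctss (-0.44) and Aif1 (-0.36). Positive were Cd14 (0.31), Olr1 (0.28), Ly86 (0.12) and Clec10a (0.02).

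On day 1, left tPA and left gel arteries had 0 calls (0.120% of all) and 1 unadjusted p under 0.05. The differences of the brightest probe sets ran from -0.43 for Lgals3 (95% interval -1.42 to 0.566) to 1.24 for Fcgr2b (-0.369 to 2.84). Fcgr2b had 866.9, 490.4 and 2275 units with tPA and 193.9 to 623.0 with gel, which overlapped. Without the 4 arrays the differences ran from -0.29 for Clec10a to 1.74 for Fcgr2b, with Lgals3 at -0.06. There was no call among them, where 1.97% of all probe sets were called. The change of the tPA effect between the days was called for 0 of 13 (0.0858% of all), with 4 unadjusted p under 0.05, and without the 4 arrays for Fcgr2b alone, at -3.02 (SE 0.808), where 2.18% of all were.

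In right arteries of tPA rats, 1 gene was called above sham on day 4. Ctss had 5295, 2835 and 3597 units and a difference of 1.57 (SE 0.325, adjusted p = 0.0131), where 0.910% of all probe sets were called. The arrays did not overlap with sham. The difference was 1.32, with no call, without the arrays that stand apart, and the call was also lost without right tPA day 4 replicate 1 alone. Lgals3, with 1209 to 4381 units against 381.8 to 851.7 in sham arteries, did not overlap either and was not called. On the array labelled right tPA day 4 replicate 1 all 9 genes were the highest of their group. Fcgr2b had 2779, 79.4 and 150.5 units there, Cd14 2120, 418.3 and 405.7, Arg1 493.3, 37.7 and 75.7, and Olr1 824.9, 75.3 and 68.2. On day 1, 0 of 13 were called (0.172% of all) and 4 had an unadjusted p under 0.05, with Ctss at 5693, 4971 and 5818 units (1.18, 95% interval 0.467 to 1.90) and Lgals3 at 2204, 2321 and 2105 (0.99, 0.0632 to 1.92), both above all sham arrays of that day. Cd14, with 477.3 to 1235 units by its brightest probe set, was above all sham arrays of that day too. Without the 4 arrays, Ctss had 1.25, Lgals3 0.96 and Cd14 0.69, and none passed (0.446% of all called).

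Left and right tPA arteries had 0 calls on day 1 (0.0172% of all) and on day 4 (0.0343%), with 1 unadjusted p under 0.05 on each day. Without the 4 arrays that stand apart, 5 probe sets were called on day 1 (5.85% of all) and 6 on day 4 (4.99%), all higher on the left, with 2 arrays in each group. The choice of arrays favours that direction. AB005900_at of Olr1, which passed the brightness filter only through the groups where it is high, was among the calls of both days. Olr1 was then higher by 3.56 on day 1 and 2.75 on day 4, Arg1 by 2.62 and 2.84, Cd14 by 1.56 and 1.60, and Fcgr2b by 2.32 and 2.33. Clec10a was called on day 4 only (2.29). Ctss had 0.09 and 0.13, and Lgals3 0.32 and 1.19, with no call. With all arrays the day 4 values were 0.98 for Olr1, 0.95 for Arg1, 0.36 for Cd14 and 0.27 for Fcgr2b.

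**Figure D4:**
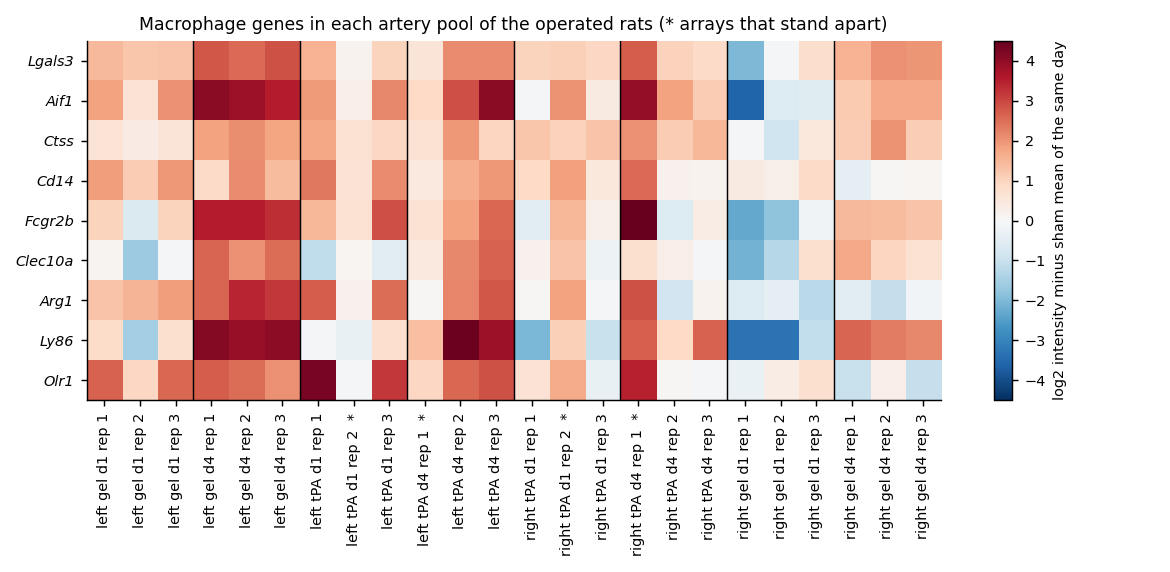
Log2 intensity of the 9 genes on each array of the operated rats, minus the mean of sham arrays of the same day (red higher, blue lower); asterisks mark the 4 tPA arrays that stand apart. The left gel day 4 columns are red in all 9 genes, left tPA day 4 replicate 1 is paler than its neighbours, and right tPA day 4 replicate 1 is redder than the other right tPA arrays.

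The genes with several probe sets did not behave alike across them. For Aif1, the brightest probe set (U10894_s_at) and U17919_s_at had a Pearson r of 0.831 over the 11 group means, and the latter was also higher on day 4 in left gel than in sham arteries (2.01, adjusted p = 0.00106). The third, U33471_at, had an r of 0.061 with the brightest and a difference of 0.39 (95% interval -0.116 to 0.889). For Cd14, the second probe set (AF087944mRNA_s_at) had an r of 0.419 with the first and a day 4 difference of 0.16 (-0.336 to 0.650). For Olr1, AB005900_at had an r of 0.900 with the brightest probe set and a day 4 difference of 2.06 (adjusted p = 0.00247), while AB018104cds_s_at was at the lower limit on 36 of 40 arrays and was not tested. AB005900_at was just inside the brightness filter, with a mean log2 of 5.80 against a limit of 5.79 and of 5.31 in sham arteries on day 4. It passed through the groups where it is high, so its calls add no support. These r are descriptions over the same arrays.

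**Figure D5:**
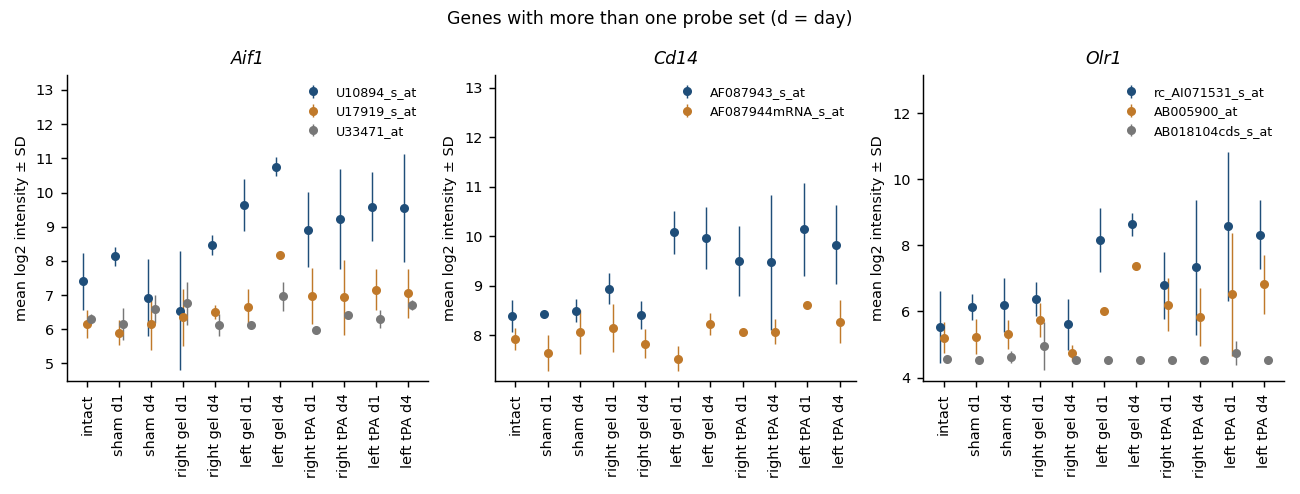
Mean log2 intensity ± SD of each probe set of Aif1, Cd14 and Olr1 in the 11 groups (n = 3 to 6 arrays). The group means of U33471_at (Aif1) and AB018104cds_s_at (Olr1) span 5.99 to 6.97 and 4.54 to 4.96, against 6.55 to 10.76 for the brightest Aif1 and 5.53 to 8.63 for the brightest Olr1 probe set.

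Ordered by group mean, left gel day 4 was the highest of 11 groups for 7 genes, left tPA day 1 for Cd14 and right tPA day 1 for Ctss. The lowest group was sham day 4 for Lgals3, Ctss and Clec10a, right gel day 1 for Aif1, Fcgr2b and Ly86, intact for Cd14 and Olr1, and right gel day 4 for Arg1. Few neighbours in this order were apart by more than the pooled SD within groups. Of the 10 steps between neighbouring groups, 2 exceeded it for Lgals3 (pooled SD 0.61) and Fcgr2b (1.02), 1 for Aif1 (1.04) and Ctss (0.46), and 0 for Cd14, Clec10a, Arg1, Ly86 and Olr1. For Fcgr2b the largest step was 1.24, against a total span from 6.84 to 10.38.

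Across the 11 group means, the pairs of the 9 genes had Pearson r from 0.403 (Cd14 and Clec10a) to 0.960 (Cd14 and Olr1). Clec10a was also the least like Olr1 (0.449) and Arg1 (0.556). Aif1 was close to Fcgr2b (0.932), Lgals3 (0.930) and Ly86 (0.929). Of 3537 other genes, those with the profile most like the mean of the 9 were Vav1 (0.993), Cd53 (0.975), Arl11 (0.973), Ptpro (0.967) and Ptpn6 (0.964). Singly, the most alike were Il18 for Lgals3 (0.969), Vav1 for Aif1 (0.971), Alad for Ctss (0.961), Ripk3 for Cd14 (0.970) and Arhgap25 for Fcgr2b (0.957). For the others they were RT1-A3 for Clec10a (0.931), Arhgap30 for Arg1 (0.941), Ptpn6 for Ly86 (0.956) and Runx1 for Olr1 (0.954). All points share the same arrays, so these are descriptions.

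Other genes of macrophage function, from lists that were drawn up beside the 9, were read in left gel against sham arteries on day 4, where 20.8% of all genes were called and their median difference was 0.03. Of 12 macrophage and monocyte genes 4 were called higher and 0 lower, with a median of 0.68: Alox5ap (2.89), which serves leukotriene synthesis, C1qb (2.89) of complement, Plek (2.71), a substrate of protein kinase C, and Tlr4 (1.39), the endotoxin receptor. Csf1r, with 159.0 to 182.3 units in left gel and 59.0 to 152.0 in sham arteries, was not called. The summed intensity of the 12 was 6438 to 9065 in left gel arteries and 2306 to 3634 in sham arteries, which did not overlap.

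Of 15 cathepsin and lysosome genes 4 were higher and 2 lower (median 0.24): Lipa (1.68), Ctse (1.95), Ctsc (1.98) and Scarb2 (1.20) rose, and Cd63 (-2.85) and Cst3 (-0.98), a cystatin that inhibits cathepsins, were lower. Beside Olr1, 3 of 8 genes of lipid uptake and storage were higher (median 0.92), namely the fatty acid carrier Fabp5 (3.79), lipoprotein lipase Lpl (3.52) and the lipid droplet protein Plin2 (1.25). All 3 were also called higher in right gel arteries on day 4, with Fabp5 at 3.81, Lpl at 3.17 and Plin2 at 1.21. The part of fat tissue in these values was not tested. Around Arg1, the arginine transporter Slc7a1 was higher (1.28) and Amd1 of polyamine synthesis lower (-2.63) among 9 genes (median -0.00). Among 8 galectins and lectins, Asgr2 was higher (1.75) and Lgals1 lower (-0.61), with a median of 0.46.

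In left tPA arteries of day 4, where 6.51% of all genes were called with a median of 0.07, fewer of these genes passed. Alox5ap (2.30) and Plek (2.29) were higher of the 12 macrophage genes, and Lipa (1.22), Ctse (1.62) and Scarb2 (1.27) higher and Cd63 (-2.99) and Lamp1 (-2.27) lower of the 15 lysosomal ones. Fabp5 was higher (3.02), as were Slc7a1 (1.70), Odc1 (0.97), which makes putrescine from ornithine, and Lgals8 (0.72), and Oat, which uses ornithine, was lower (-0.93).

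Markers of other cells were read beside the 9 genes on day 4 after gel, where 20.8% of all genes were called. All 5 pan-leukocyte genes were higher (median 4.12), with a summed intensity of 3900 to 4439 against 137 to 411 in sham arteries. Of 9 lymphocyte genes 4 were higher, Cd8a (3.91), Cd37 (2.83), Cd3g (2.78) and Cd247 (1.02), with a summed intensity of 2386 to 2947 against 832 to 1381. Of 5 neutrophil genes 0 were called, with 585 to 918 units against 401 to 660, and of 4 mast cell genes 0. Of 5 adipocyte genes 1 was higher and 1 lower (median 0.51), with a summed intensity of 5782 to 8787 against 3788 to 5711, which did not overlap. Of 8 smooth muscle genes 3 were lower, Myh11 (-2.20), Itga7 (-1.87) and Cnn1 (-1.59). The ratio of 3' to 5' signal of the actin control, a sign of RNA quality, was 7.38 to 8.09 on left gel day 4 arrays and 11.8 to 23.7 on sham arrays of that day. The part of these in the result was not tested.

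In left tPA arteries on day 4, where 6.51% of all genes were called, 4 of the 5 pan-leukocyte genes were higher than in sham arteries (Ptprc 3.42, Cd53 2.60, Vav1 2.46 and Spn 2.43). Their summed intensity, with Coro1a, was 357 on replicate 1, within the sham range, and 3375 and 5914 on the others. Of 9 lymphocyte genes Cd37 was higher (2.12), with a summed intensity of 1196 to 2214 against 832 to 1381 in sham arteries. Of 8 smooth muscle genes Acta2 (-0.68) and Cnn1 (-1.27) were lower, and their median was -0.85. Of 5 neutrophil and 4 mast cell genes 0 were called. The part of these in the tPA values of the 9 genes was not tested.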

How the data were processed

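RNA of rat carotid arteries, 3 vessels per pool, was labelled with biotin and hybridised to Affymetrix rat arrays, per the labels' protocols. What the authors deposited is a linear intensity for each probe set on each array. How probes were summarised is not given in the sources used here, and the values were scaled before deposit. The 59 control probe sets of 8799 were left out. Intensities below 23.3 (20th percentile) were raised to it, which understates changes of dim genes, and log2 was taken. The 2913 probe sets with the lowest means were left out, and the remaining 5827 probe sets were tested with limma 3.58.1 in R 4.3.3 on all 40 arrays with 11 group means and Benjamini-Hochberg adjustment. The probe set with the highest mean represents a gene, and symbols come from the platform annotation supplied. The fit was tested on simulated data.

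Members and lists were chosen with earlier results of these data known. Described are all member probe sets, and from 5 lists up to 4 called genes with the smallest p in left gel and left tPA against sham on day 4; other genes named were chosen after their values were seen. In 1 of 18 comparisons of 2 groups, every pair of arrays with the same replicate number had deviations correlated above 0.1, so the numbers were not used as pairs. Left gel day 1 replicates 1 and 3 were the most alike of 60 pairs within groups (SD of log2 differences 0.45, median 0.838) and not identical. Alternatives were other normalizations, filters and floors, array weights, fewer groups, a replicate block, that pair averaged, 4 tPA arrays left out (picked by their profile, so not an independent check), and each array left out.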

Additional observations from a re-analysis of the deposited data

Results flagged for a closer look

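Among the sham arteries of day 4, Ly86 on replicate 6 (175.5 units) lay far above the other 5, the gap being 0.767 of the whole range on the log2 scale. Olr1 on replicate 3 (13.6 units, raised to the lower limit of 23.3) lay far below the other 5, with a gap of 0.851 of the range. These were 2 of 39 groups of 4 to 6 arrays examined over the tested probe sets, and chance alone marks about 1 in 20. The rise over sham in left gel arteries was larger on day 4 than on day 1 for Clec10a (by 2.91) and Ly86 (by 4.04). In right gel arteries Ly86 was below sham on all 3 arrays of day 1 (-2.57, with 2 of the 3 under the lower limit, so that its size depends on that limit) and above sham on all 3 of day 4 (2.35); this difference between the days was not tested.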

How the results depend on the processing

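Under the alternatives, 32 called differences of single probe sets kept their direction in all 314 refits other than leaving out 1 array and in all 282 that left out 1 array; 39 and 92 of these no longer passed. The count of 11 for left gel against sham on day 4 stayed within 1.5 times under each alternative (9 to 11 with 1 array left out); under the replicate block Cd14 no longer passed there. Counts of called probe sets moved as follows. Array weights gave 6 for left gel against sham on day 1, 11 for left tPA against sham on day 4, 1 for left tPA against left gel on either day, 7 and 9 for left against right gel on days 1 and 4, 2 for left against right tPA on day 4, 5 for right gel and 0 for right tPA against sham on day 4, 7 for left gel day 4 against day 1, 6 for the gel injury effect by day and 4 for sham by day. Fitting only the groups compared gave 5 and 0 for left gel and left tPA against sham on day 1, 0 for left tPA against sham on day 4, 1 and 8 for left against right gel on days 1 and 4, 0 for right tPA against sham on day 4, and 2, 5 and 4 for the 3 comparisons by day. The replicate block gave 2 and 0 for left gel and left tPA against sham on day 1, 0 for left tPA, 5 for right gel and 0 for right tPA against sham on day 4, 8 for left against right gel on day 4, with 4 for the day contrast of the injury effect. Without the 4 tPA arrays the counts were 4, 8 and 11 for left gel on day 1 and left tPA on days 1 and 4 against sham, 5 for left against right gel on day 1, 5 and 6 for left against right tPA, 0 for right tPA against sham on day 4, 4 for left gel by day, 3 for sham by day and 1 for the change of the tPA effect. Median scaling gave 2 and 3 for left against right gel on days 1 and 4 and 3 for sham by day, and quantile normalization 1 for left tPA against sham on day 1. With no filter the counts were 2 for left against right gel on day 4, 1 for the day contrast of the injury effect and 0 for sham by day; with 50% left out, 1 and 2 for left against right gel and 2 for right tPA against sham on day 4. The higher floor gave 2 for left gel by day and 0 for sham by day, and averaging the most alike pair gave 0 for left gel against sham on day 1 and 3 for left against right gel on day 4. With 1 array left out, counts ran from 0 to 1 for left gel against sham on day 1, for left tPA against sham 0 to 6 (day 1) and 0 to 9 (day 4), 0 to 2 and 2 to 3 for left against right gel, 1 to 3 for right gel and 0 to 3 for right tPA against sham on day 4, 0 to 2 both for the injury effect by day and for sham by day. The causes were not tested. Median scaling moved the median of all probe sets by up to -0.298 (left gel by day); scaling turned the sign of uncalled differences alone. Precision is limited by having 3 arrays in most groups.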
